A study of Rattus norvegicus with 4 samples.

Results

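Heat shock chaperones are proteins that bind unfolded or newly made proteins and help them to fold, to be held in solution or to be degraded. The RNA of 8 of them was followed here through 4 kidney sections, taken as the rows with the symbols Hspa1b, Hsph1, Hspa8, Dnajb1, Hsp90aa1, Hsp90ab1, Hspb1 and Hspd1 among the 28312 gene symbols of the matrices. The choice rests on the symbols and not on a measured value. All 8 were found and all 8 passed the minimum of 20 UMIs in each comparison made. Hspa8 had 2 identifiers, whose counts were summed, and the smaller held only 14 UMIs in the PAN section, 19 in the PAN_LS-FMD section, 9 in the healthy_LS-FMD section and 9 in the healthy section.

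Chaperone genes fall into families with linked tasks. Hspa1b (inducible HSP70) and Hspa8 (its constitutive relative) clamp short stretches of unfolded protein in an ATP-driven cycle, Dnajb1 (an HSP40) starts that cycle, and Hsph1 (HSP110) releases the nucleotide that ends it. Hsp90aa1 and Hsp90ab1, the inducible and the constitutive cytosolic HSP90, finish the folding of kinases and steroid receptors, Hspb1 (HSP27) holds unfolding proteins and binds actin filaments, and Hspd1 (HSP60) forms the folding chamber of mitochondria. The transcription factor Hsf1 raises many of these genes together when unfolded protein accumulates, by binding heat shock elements, which are inverted repeats of the bases GAA. In the kidney, cells of the inner medulla live in high salt and urea and are known for inducible HSP70.

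Promoter sequences were examined first, because heat shock elements are what the family is known to share. RefSeq promoter windows on the GRCr8 build, running from 250 bases before to 50 bases after a listed start, were matched by symbol for 6 of the 8 genes, namely Hsph1, Hspa8, Dnajb1, Hspb1, Hspd1 and Hsp90ab1. Each window was searched for 3 inverted units, GAANNTTCNNGAA or TTCNNGAANNTTC, which are reverse complements, so that both strands were covered. It was also searched for pairs of units, GAANNTTC or TTCNNGAA, each of which reads the same on both strands and also lies within every match of 3 units. The stretches below hold the largest group of matched units in each gene, the nearest to the start where groups are equal, and capitals mark the GAA and TTC units that were matched.
Hsph1, chr12:10427312-10427364, plus strand: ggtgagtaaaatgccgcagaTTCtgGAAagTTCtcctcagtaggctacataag
Hspa8, chr8:50080439-50080491, plus strand: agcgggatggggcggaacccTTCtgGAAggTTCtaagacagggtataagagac
Hspd1, chr9:64084242-64084287, minus strand: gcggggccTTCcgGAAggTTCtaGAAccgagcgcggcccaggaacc
Dnajb1, chr19:41431112-41431172, minus strand: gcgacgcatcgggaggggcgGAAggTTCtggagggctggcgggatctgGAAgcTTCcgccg
Hspb1, chr12:26432383-26432450, minus strand: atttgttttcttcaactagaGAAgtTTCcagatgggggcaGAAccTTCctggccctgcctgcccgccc

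Among these 6 windows, 3 held at least 1 match of 3 inverted units. Hsph1 had 1, Hspa8 had 2 and Hspd1 had 2 that overlap each other. By comparison, 267 of the 33469 RefSeq windows of 300 bases held such a match, which is 0.798%. Dnajb1 and Hspb1 held 2 pairs each and no match of 3 units, and 2.28% of all windows held 2 or more pairs. The Hsp90ab1 window held neither form. In Hsph1 the match of 3 units lay 36 to 24 bases before the listed start, and in Hspa8 the nearer of its matches lay 55 to 43 bases before it. Hspd1 lies head to head with Hspe1, which encodes the lid of the same mitochondrial chamber, and their windows share 211 of 300 bases, so that the Hspd1 matches are also matches of the Hspe1 window. A match describes the letters of these windows and not binding by a factor.

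**Figure D1:**
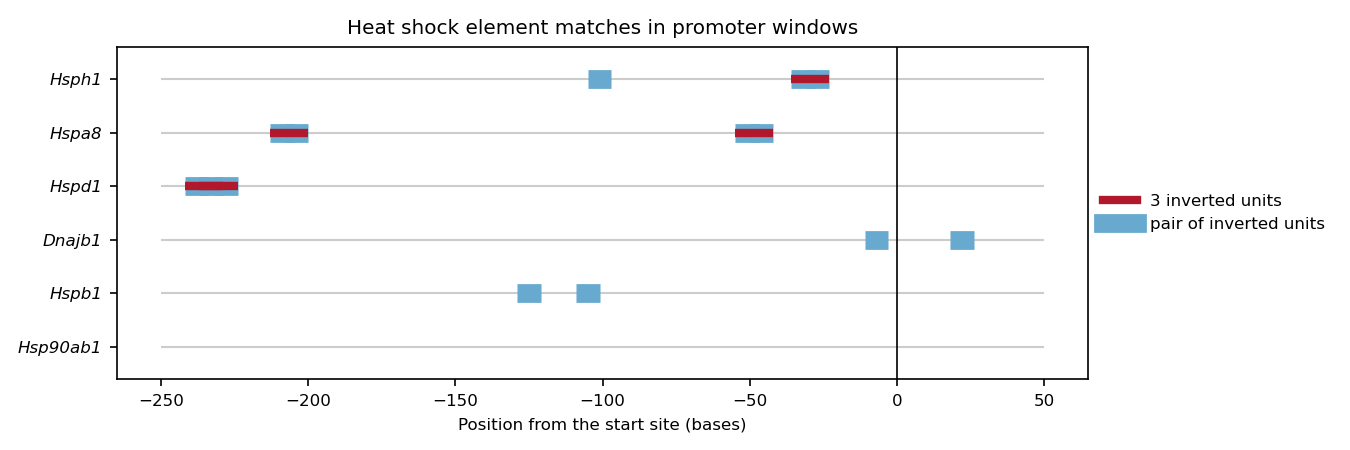
Matches of heat shock element units in the promoter windows of 6 chaperone genes, by position in bases from the listed start (vertical line); red bars are matches of 3 inverted units and blue bars are pairs. Hsph1, Hspa8 and Hspd1 hold red bars, Dnajb1 and Hspb1 only blue ones, and Hsp90ab1 none.

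RNA was measured with the Visium assay, in which a 10 µm tissue section lies on a grid of barcoded spots, each a small region that can hold several cells. All rats were Sprague-Dawley, and each group had 1 section. PAN animals had been injected with puromycin aminonucleoside, a podocyte toxin, 5 months earlier and were fed ad libitum. PAN_LS-FMD animals had the same injection and, 6 weeks before analysis, had finished 6 rounds (cycles) of a fasting-mimicking diet low in salts. The healthy_LS-FMD animal was not injected and was examined 72 h into refeeding after 1 cycle of the diet, and the healthy group was neither injected nor dieted. The diets of the injected and the uninjected group therefore differ in cycles and in time since the last one.

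The sections held 2190 to 2869 spots and 24925280 to 58569311 UMIs, that is captured RNA molecules, with the PAN section the shallowest and the healthy section the deepest. Spots were grouped into 57 regions by their expression, section by section, and regions into cortex, outer stripe, medulla and blood-rich spots by marker genes. A region took the zone of its highest marker score alone, so a zone of the same name can hold different tissue in different sections. Cortical spots numbered 1253 in the PAN section, 918 in the PAN_LS-FMD section, 961 in the healthy_LS-FMD section and 1008 in the healthy section. Levels are CPM, the UMIs of a gene scaled to 1000000 UMIs of the same spots. With 1 section per group there was no test between groups, and all intervals are 95% intervals of counting error. A gene was called higher or lower at 1.5-fold with an interval that left out 1. Less RNA in each cell and fewer cells of a type cannot be told apart in spots.

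In the cortex of the PAN section, 6 of the 8 chaperones were called higher than in the healthy section and none lower, against 40.6% of all 11869 tested genes called higher and 9.88% called lower. The median log2 fold was 0.91 over the 8 genes and 0.45 over all genes. A shift of all genes by that much means that a gene at 1.37-fold stood level with the bulk, which is where Hspa8 stood. With size factors by median of ratios, which take that shift out, 2 of the 8 stayed called higher, Hspa1b and Hspb1, and Hspd1 was called lower, with 21% of all genes higher and 20.2% lower. Hspa1b and Hspb1 were thus called under both scalings, and the cortical calls of Hsph1, Dnajb1, Hsp90aa1 and Hsp90ab1 were lost by median of ratios. The same 6 were called higher in the outer stripe, where 40.4% of all genes were called higher and 7.96% lower, and in the medulla, where 42.9% were higher. Of these, 3 stayed called higher in both zones by median of ratios, Hspa1b, Hspb1 and Hsph1, and Hspd1 was called lower in both. By that scaling 19.8% of all genes were higher and 19.3% lower in the outer stripe, and 21.5% higher and 21.7% lower in the medulla.

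Hspa1b, the inducible HSP70, reached 79.8 CPM in the cortex of the PAN section, against 14.3 CPM in the healthy section. That is a 5.58-fold difference (4.86 to 6.43), or 2.03 on the log2 scale above the median of all genes. The level was 61.8 CPM in the outer stripe of the PAN section and 9.57 CPM in that of the healthy section, and 109 CPM against 22.0 CPM in the medulla. Hspa1b was thus 4.98 to 6.45 times as high in the PAN section in all 3 zones. The near-identical Hspa1a row held 0 UMIs in all 4 sections, so reads of both copies may lie under Hspa1b, and the Hspa1b level is uncertain in that respect.

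Hspb1, the small heat shock protein of the actin skeleton, had 171 CPM in the cortex of the PAN section and 54.2 CPM in the healthy section, a fold of 3.15 (2.92 to 3.40). Its folds were 4.53 in the outer stripe and 4.31 in the medulla. The co-chaperones of the HSP70 cycle differed less. Dnajb1 had 144 CPM in the PAN cortex against 72.5 CPM in the healthy cortex, and Hsph1 had 172 CPM against 89.6 CPM, which are folds of 1.99 (1.85 to 2.14) for Dnajb1 and 1.92 (1.80 to 2.05) for Hsph1. On the log2 scale Dnajb1 lay 0.54 and Hsph1 0.49 above the median of all genes. In the other zones Dnajb1 stayed between 1.97 and 1.99-fold and Hsph1 between 2.13 and 2.30-fold.

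The HSP90 pair differed by a smaller factor. Hsp90aa1 had 500 CPM in the PAN cortex and 271 CPM in the healthy cortex, a fold of 1.84 (1.77 to 1.91). Hsp90ab1 had 932 CPM in the PAN cortex and 557 CPM in the healthy cortex, a fold of 1.68 (1.63 to 1.72). Constitutive Hspa8 had 471 CPM against 343 CPM and was called in none of the 3 zones.

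Hspd1 went the other way from the rest. The mitochondrial chaperonin had 550.1 CPM in the PAN cortex and 715 CPM in the healthy cortex, a fold of 0.770 (0.747 to 0.793) that did not reach the size for a call. In the medulla it had 448 CPM in the PAN section against 673 CPM in the healthy section and was called lower, at 0.665-fold (0.636 to 0.696), where 10.9% of all genes were called lower. Relative to the median of all genes, Hspd1 lay 0.83 lower in the cortex and 1.07 lower in the medulla on the log2 scale. Markers of the proximal tubule were lower in sum as well, with 4 of 5 S3 genes and 3 of 7 S1 and S2 genes called lower in the PAN cortex, 4 of 5 and 6 of 7 in the PAN medulla, and 1 S3 gene called higher in each zone. The 5 genes of its S3 segment summed to 640.1 CPM in the PAN cortex against 9302 CPM in the healthy cortex, and to 1778 CPM in the PAN medulla against 16844 CPM in the healthy medulla. The 7 genes of its S1 and S2 segments summed to 5353 CPM in the PAN cortex against 10280 CPM in the healthy cortex, and to 2103 CPM against 6288 CPM in the medulla. No gene of these 2 lists was at 0 there, and their part in the Hspd1 values was not tested. The S1 and S2 list had more RNA in the healthy medulla than in the healthy outer stripe (5767 CPM), so that medulla was mixed tissue. A PAN medullary region of 315 spots, led by Igh-6 and Pla2g2a, scored 0.264 for thick ascending limb genes and 0.216 for S3 genes. The medullary folds between sections therefore do not compare like tissue throughout.

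**Figure D2:**
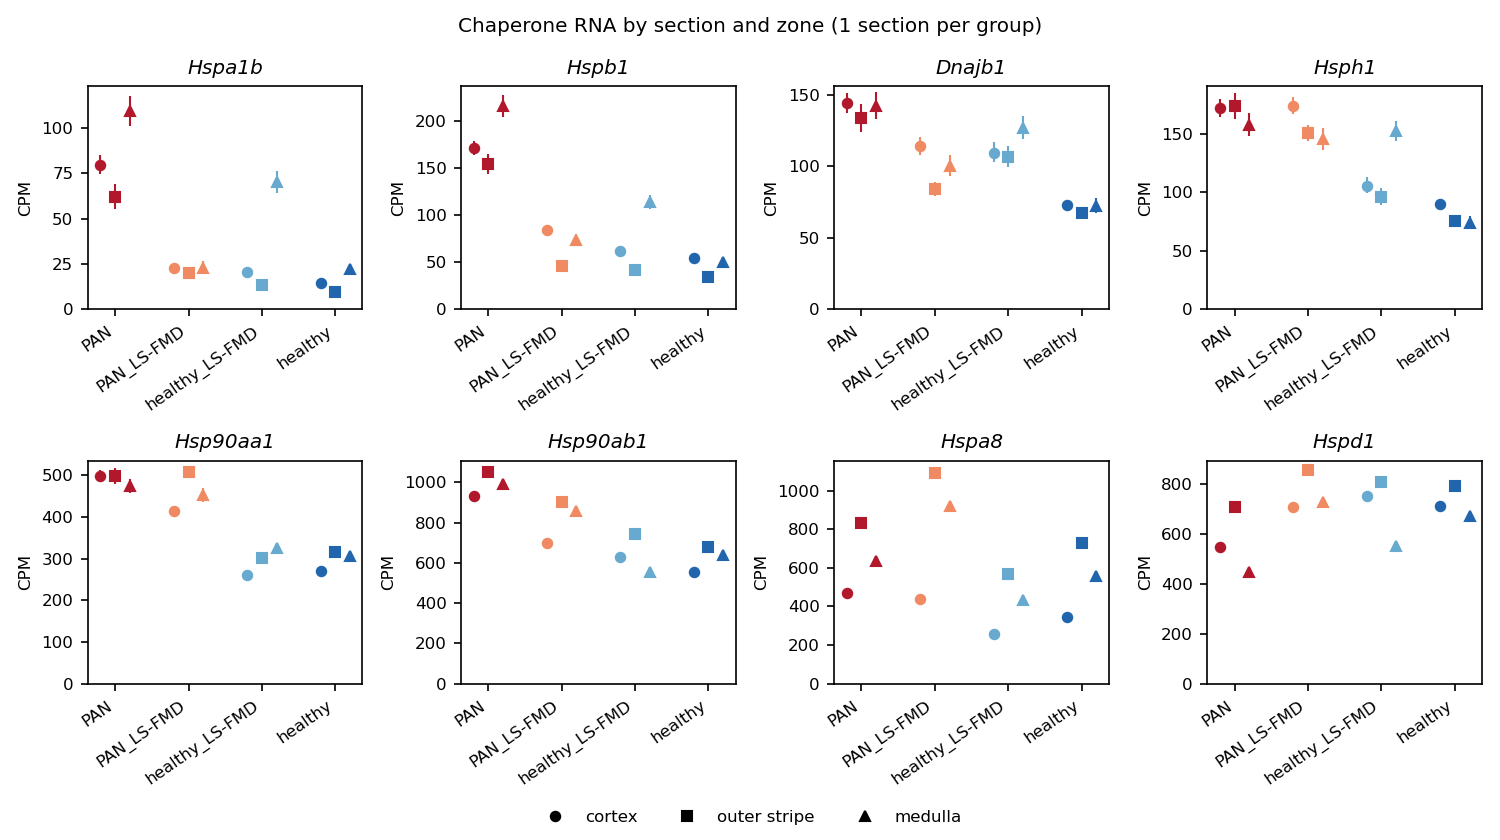
CPM of each of the 8 chaperones (linear axes starting at 0) in the cortex, outer stripe and medulla of the 4 sections, with 95% Poisson intervals; each point sums the spots of 1 zone in 1 section. Hspa1b and Hspb1 are highest in the PAN section in all 3 zones, and Hspd1 is lowest there.

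Markers of injury and of infiltrating cells were also far higher in the PAN section. In the cortex the 6 tubule injury genes summed to 19940 CPM in the PAN section, 663 CPM in the PAN_LS-FMD section, 919 CPM in the healthy_LS-FMD section and 493 CPM in the healthy section. The 6 macrophage genes summed to 5176, 1257, 1005 and 997 CPM in that order of sections, the 7 matrix genes to 2739, 418, 349 and 452 CPM, and the 6 T and B cell genes to 1257, 155, 123 and 37.1 CPM. Every gene of these 4 lists was called higher in the PAN cortex than in the healthy cortex, and none had 0 UMIs in any cortex. Their part in the chaperone values was not tested. A further setting left out cortical regions that scored higher for injury or matrix genes than for any cortical list. Scores were centred within each section, and in this pair it removed only the PAN region led by Postn, Car3 and Lum (377 spots). The PAN region led by Slc7a7 and Havcr1 stayed in, so this setting did not free the cortex of injured spots. The same 6 chaperones were then called higher, with Hspa1b at 4.89-fold and Hspb1 at 2.70-fold. The share of all genes called was not computed for this setting.

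In the PAN_LS-FMD section against the PAN section, the chaperones parted company. In the cortex 2 of the 8 were called lower, Hspa1b and Hspb1, and none higher, where 27.3% of all 11699 genes were called lower and 10.1% higher. The median log2 fold was -0.30 over the 8 genes and -0.25 over all genes. The comparison shares the PAN section with the one above, and the other 3 comparisons all share the healthy section.

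Hspa1b had 22.8 CPM in the PAN_LS-FMD cortex and 79.8 CPM in the PAN cortex, a fold of 0.286 (0.249 to 0.327). In the medulla the levels were 22.6 CPM in the PAN_LS-FMD section and 109 CPM in the PAN section, or 0.207-fold. Hspb1 had 83.8 CPM in the PAN_LS-FMD cortex against 171 CPM in the PAN cortex, or 0.491-fold (0.455 to 0.530), and its folds were 0.296 in the outer stripe and 0.339 in the medulla. Both genes were called lower in all 3 zones and, with size factors by median of ratios, Hspa1b and Hspb1 stayed called lower in the cortex at 0.341 and 0.586-fold, while Hspd1 was called higher at 1.54-fold, with 19.1% of all genes lower and 16.3% higher. Over all spots of the section, Hspa1b stood at 0.266-fold and Hspb1 at 0.367-fold, where 35.5% of all genes were called lower, and by median of ratios at 0.347 and 0.479-fold, where 21.9% were. Dnajb1 was called lower in the outer stripe alone, at 0.629-fold, and had 0.791-fold in the cortex and 0.706-fold in the medulla. In the outer stripe 37.4% of all genes were called lower and 7.27% higher, and in the medulla 39% were lower. Dnajb1 was not called in the outer stripe by median of ratios, at 0.857-fold.

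Hsph1 and Hsp90aa1 behaved differently from Hspa1b. Hsph1 had 174 CPM in the PAN_LS-FMD cortex and 172 CPM in the PAN cortex, a fold of 1.01 (0.952 to 1.08). Hsp90aa1 had 416 CPM in the PAN_LS-FMD cortex against 500 CPM in the PAN cortex, and 509 CPM against 498 CPM in the outer stripe. Neither was called in any zone. Hspa8 ran at 0.927-fold in the cortex, 1.31-fold in the outer stripe and 1.45-fold in the medulla, and the cortical value turned to 1.11 with size factors by median of ratios. By that scaling Hspa8 was called higher in the outer stripe (1.79-fold) and in the medulla (1.95-fold). Hspd1 had 709 CPM in the PAN_LS-FMD cortex and 550.1 CPM in the PAN cortex, a fold of 1.29. It was called higher in the medulla, at 730 CPM against 448 CPM (1.63-fold, 1.56 to 1.71), as were 11% of all genes there. Proximal tubule markers were higher there too, at 23650.5 CPM against 1778 CPM for the S3 list and 5457 CPM against 2103 CPM for the S1 and S2 list in the PAN_LS-FMD and PAN medulla, and their part in the Hspd1 value was not tested. By median of ratios Hspd1 was called higher in the outer stripe too, at 1.65-fold. By that scaling 18.7% of all genes were called higher and 20.4% lower in the outer stripe, and 21% higher and 22.1% lower in the medulla.

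Set against the healthy section, the PAN_LS-FMD cortex had 5 of the 8 chaperones called higher and none lower, where 10.1% of all 11475 genes were called higher and 3.03% lower. The median log2 fold was 0.62 over the 8 genes and 0.18 over all genes. Hsph1 had the largest fold, 1.95 (1.82 to 2.08), with 174 CPM in the PAN_LS-FMD cortex against 89.6 CPM in the healthy cortex. Its fold ranked above 96.2% of the tested genes. Hspa1b followed at 1.59-fold (1.34 to 1.90), Dnajb1 at 1.57-fold, Hspb1 at 1.55-fold and Hsp90aa1 at 1.53-fold, all close to the size for a call. With size factors by median of ratios only Hsph1 stayed called, at 1.70-fold, where 4.73% of all genes were called higher and 5.73% lower.

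Hsph1 was the only one of the 8 called higher in all 3 zones of this comparison, at 1.99-fold in the outer stripe and 1.97-fold in the medulla. In the outer stripe 4.3% of all genes were called higher and 5.8% lower, and in the medulla 6.53% were higher and 6.1% lower. On total UMIs, Hspa1b was called higher in the outer stripe, at 19.6 CPM in the PAN_LS-FMD section against 9.57 CPM in the healthy section (2.05-fold). Hsp90aa1 was called higher there too, at 509 CPM against 315 CPM (1.62-fold). In the medulla Hspa1b had 22.6 CPM in the PAN_LS-FMD section and 22.0 CPM in the healthy section, a fold of 1.03 (0.833 to 1.27). Hspa8 was called higher in the outer stripe, at 1093 CPM in the PAN_LS-FMD section against 726 CPM in the healthy section (1.51-fold), and in the medulla, at 920.2 CPM against 558 CPM (1.65-fold). By median of ratios Hspa8 kept its call in the medulla (1.59-fold) and lost it in the outer stripe (1.47-fold), while Hsph1 kept both (1.95 and 1.90-fold). By that scaling 3.82% of all genes were higher and 6.35% lower in the outer stripe, and 5.43% higher and 7.11% lower in the medulla. Hspd1 stood at 0.992-fold in the cortex (0.966 to 1.02), 1.08-fold in the outer stripe and 1.09-fold in the medulla.

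**Figure D3:**
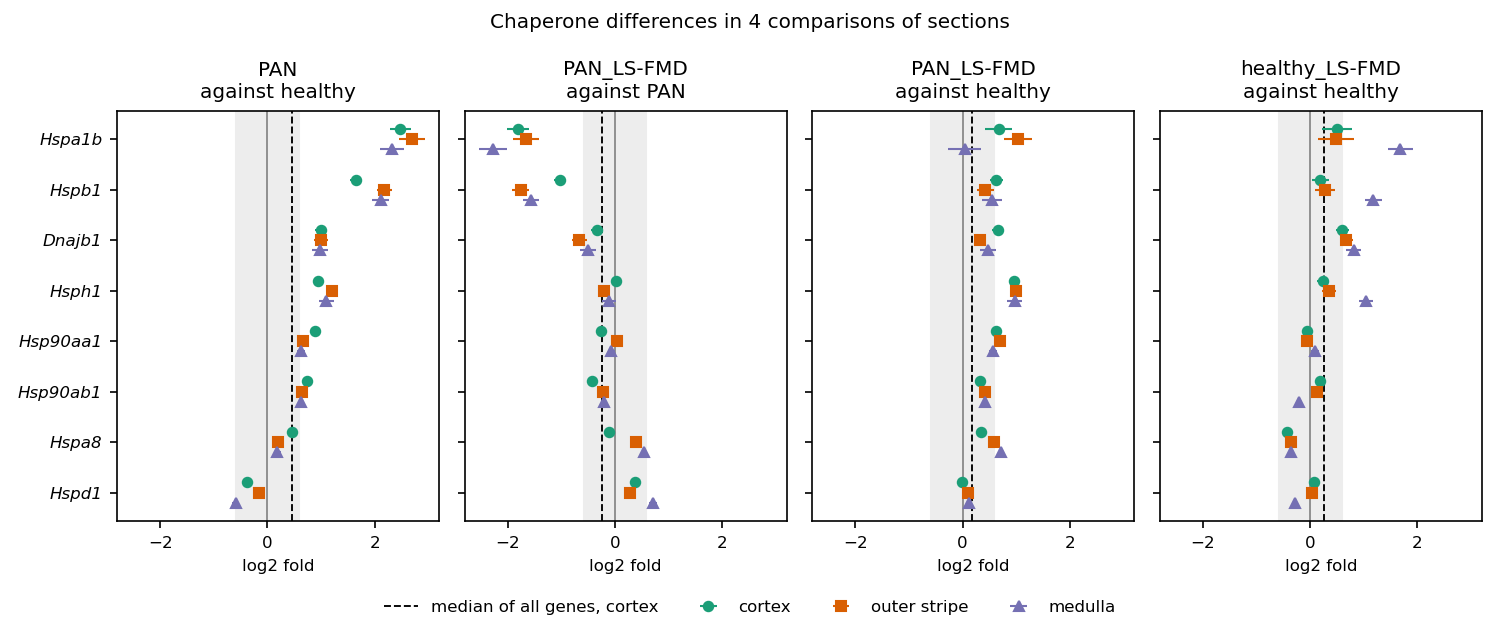
log2 fold of each chaperone in 4 comparisons of sections, by zone, with 95% counting intervals; the grey band is the range under 1.5-fold and the dashed line the median of all genes in the cortex. Hspa1b and Hspb1 lie far right for PAN against healthy and far left for PAN_LS-FMD against PAN, while Hsph1 lies right of the band in both injected sections against healthy.

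In the uninjected kidneys, the section taken after 1 diet cycle had 1 of the 8 chaperones called higher in the cortex, Dnajb1, and none lower, where 19.4% of all 11387 genes were called higher and 5.45% lower. Dnajb1 had 110 CPM in the healthy_LS-FMD cortex and 72.5 CPM in the healthy cortex, a fold of 1.51 (1.39 to 1.64). The median log2 fold was 0.18 over the 8 genes and 0.26 over all genes. With size factors by median of ratios Dnajb1 stood at 1.25-fold and was not called, Hspa8 was called lower at 0.613-fold, and 7.89% of all genes were called higher and 11.2% lower. Hsph1, Hsp90ab1, Hspb1 and Hspd1 changed direction between the scalings here, lying at 1.05 to 1.18-fold on total UMIs and at 0.870 to 0.975-fold by median of ratios.

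The medulla gave a different picture in the same pair of sections. It enters the values over all spots, where Hspa1b stood at 2.39-fold and Hspb1 at 1.63-fold and 27.1% of all genes were called higher. With the other scaling, median of ratios, Hspa1b stood at 1.88-fold and was called, where 10.4% of all genes were higher, and Hspb1 stood at 1.28-fold and was not. In the medulla itself 4 chaperones were called higher and none lower, where 34.7% of all genes were called higher and 8.05% lower. With median of ratios 3 were called higher there, Hspa1b (2.45-fold), Hspb1 (1.74-fold) and Hsph1 (1.58-fold), and 3 lower, Hspa8 (0.599-fold), Hspd1 (0.633-fold) and Hsp90ab1 (0.662-fold), with 14.5% of all genes higher and 16.8% lower. Hspa1b had 70.2 CPM in the healthy_LS-FMD medulla and 22.0 CPM in the healthy medulla (3.20-fold, 2.72 to 3.77). Hspb1 had 113 CPM against 49.9 CPM (2.27-fold), Hsph1 152 CPM against 73.9 CPM (2.06-fold) and Dnajb1 127 CPM against 72.2 CPM (1.76-fold). Dnajb1 was also called higher in the outer stripe, at 1.59-fold, where 15.4% of all genes were called higher and 4.59% lower. By median of ratios it stood at 1.35-fold in both zones and was not called, and in the outer stripe 6.45% of all genes were higher and 9.32% lower. The healthy_LS-FMD section was the only one in which regions scored highest for inner medulla markers, with 530 spots. The 4 inner medulla genes summed to 586 CPM in its medulla, 138 CPM in the PAN medulla, 62.1 CPM in the PAN_LS-FMD medulla and 97.0 CPM in the healthy medulla. The part of these markers in the medullary chaperone values was not tested.

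Regions that scored highest for principal cell markers of the collecting duct can be set side by side. In the healthy_LS-FMD section, Hspa1b had 102 CPM in such a region led by Aqp4 (214 spots) and 36.7 CPM in another led by Grem1 and Slc4a1 (74 spots). In the healthy section the only such region, led by Fxyd4 and Grem1 (176 spots), had 27.1 CPM. In the 2 regions of the healthy_LS-FMD section that scored highest for inner medulla markers, Hspa1b had 101 and 55.6 CPM.

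Hspa8 ran lower in the dieted healthy kidney. It had 255 CPM in the healthy_LS-FMD cortex and 343 CPM in the healthy cortex, a fold of 0.742 (0.707 to 0.779), with 0.785-fold in the outer stripe and 0.780-fold in the medulla, none of them called. It was called lower in all 3 zones by median of ratios, at 0.599 to 0.666-fold. In glomerular spots the levels were 160 CPM in the healthy_LS-FMD section and 391 CPM in the healthy section, or 0.408-fold, where 4.84% of all genes were called lower, with 73 UMIs of Hspa8 in the healthy_LS-FMD spots. Hsp90aa1 lay within 0.959 to 1.06-fold in the 3 zones.

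Within each section, the chaperones differed in where they were highest. Hspa8 was lowest in the cortex and highest in the outer stripe in all 4 sections, at 1.77 times the cortical level in the PAN section, 2.50 times in the PAN_LS-FMD section, 2.24 times in the healthy_LS-FMD section and 2.11 times in the healthy section. Its medullary level was 1.35 to 2.11 times the cortical one. Of all genes, 6.6% were called higher in the outer stripe than in the cortex of the PAN section, 7.75% in the PAN_LS-FMD section, 6.69% in the healthy_LS-FMD section and 9.24% in the healthy section. For the medulla these shares were 9.6% in the PAN section, 7.64% in the PAN_LS-FMD section, 22.6% in the healthy_LS-FMD section and 8.9% in the healthy section. Hspa1b was lowest in the outer stripe in all 4 sections. Its medullary level was 1.37 times the cortical one in the PAN section, 0.993 times in the PAN_LS-FMD section, 3.48 times in the healthy_LS-FMD section and 1.54 times in the healthy section. Hsp90aa1 was the most even of the 8, with its highest zone at most 1.25 times its lowest in any of the 4 sections.

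Glomerular spots, the regions that scored highest for the podocyte marker list, were rich in Hspb1 in all 4 sections. Hspb1 had 381 CPM there in the PAN section (34 spots, 121 UMIs), 189 CPM in the PAN_LS-FMD section, 109 CPM in the healthy_LS-FMD section and 89.3 CPM in the healthy section. Against the other cortical spots of the same section these are folds of 2.31 in PAN, 2.68 in PAN_LS-FMD, 1.85 in healthy_LS-FMD and 1.78 in healthy, each called higher. Of all genes 7.78%, 15.1%, 13.6% and 15.3% were called higher there, in the same order. Hspa1b had 132 CPM in the glomerular spots of the PAN section, from 42 UMIs, against 21.3 CPM in those of the healthy section. It was 1.69 times the level of the other cortical spots in the PAN section and 1.58 times in the healthy section. It was 1.05 times that level in PAN_LS-FMD and 1.09 times in healthy_LS-FMD, with intervals on both sides of 1. Between the glomerular spots of the PAN_LS-FMD and healthy sections, 3 of the 8 were called higher in PAN_LS-FMD (Hsph1, Dnajb1 and Hspb1), where 9.21% of all genes were. Hspb1 alone stayed called by median of ratios, at 1.86-fold, where 4.27% of all genes were. Hspd1 stood at 0.709 to 0.801 times the level of the other cortical spots in the 4 sections, and was not called.

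The 57 regions show how far the sections overlap. Regions of a section are not replicates, since they share a library. For 5 of the 8 chaperones (Hspa1b, Hsph1, Dnajb1, Hsp90aa1 and Hsp90ab1) the lowest of the 13 PAN regions lay above the highest of the 16 healthy regions, against 10.6% of all 13182 genes. The gap was narrow for Hspa1b, with 47.4 CPM in the lowest PAN region and 46.1 CPM in the highest healthy region, which had 25 spots and was led by the smooth muscle genes Myh11 and Des. For Hsph1 it was wider, at 142 CPM in the lowest PAN region and 98.9 CPM in the highest healthy region. With size factors by median of ratios Hsph1 alone kept this separation, where 2.86% of all genes had it.

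In PAN_LS-FMD against healthy, 2 of the 8 separated in this way, Hsph1 and Hsp90aa1, against 0.479% of all 12952 genes. Hsph1 had 139 CPM in the lowest PAN_LS-FMD region and 98.9 CPM in the highest healthy region. Hsp90aa1 had 362 CPM in the lowest PAN_LS-FMD region and 328 CPM in the highest healthy region. Both separations were also present with size factors by median of ratios, where 0.293% of all genes had one. By that scaling the Hsp90aa1 gap was narrow, at 13257.5 in the lowest PAN_LS-FMD region and 13136.7 in the highest healthy region (scaled counts, not CPM). In PAN_LS-FMD against PAN, Hspa1b alone lay wholly below, with 40.1 CPM in the highest PAN_LS-FMD region and 47.4 CPM in the lowest PAN region, where 8.03% of all 12832 genes did, and by median of ratios it overlapped, where 3.55% of genes did not. None of the 8 separated in healthy_LS-FMD against healthy, where 1.08% of all genes lay wholly above and 0.278% wholly below.

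**Figure D4:**
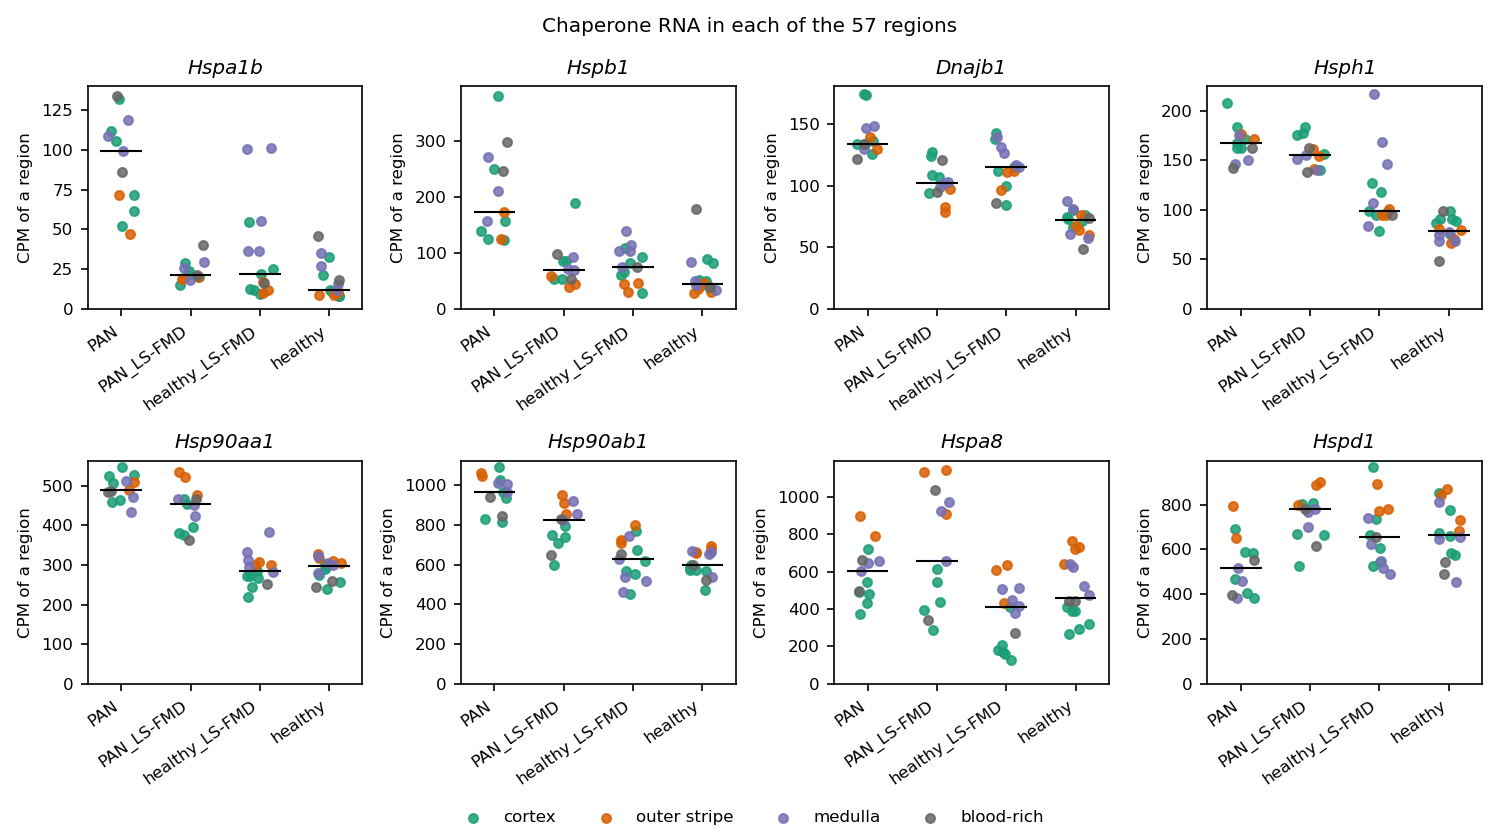
CPM of each chaperone (linear axes starting at 0) in each of the 57 regions, by section and coloured by zone, with the median of the regions of a section as a black line; points are spread sideways for legibility. For Hsph1 and Hsp90aa1 all regions of both injected sections lie above all healthy regions, and for Hspa1b all PAN regions lie above those of PAN_LS-FMD and healthy, while with size factors by median of ratios the Hspa1b regions and the Hsp90aa1 regions of PAN and healthy overlap.

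Among the 13 regions of the PAN section, the highest level was 3.11 times the lowest for Hspb1, 2.82 times for Hspa1b, 2.42 times for Hspa8 and 2.09 times for Hspd1. In the region led by Postn, Car3 and Lum (377 spots) Hspa1b had 112 CPM, Hspb1 250.0 CPM and Hspd1 382 CPM. In the region led by the S3 tubule genes Slc7a12, Slc7a13 and Kap (161 spots) Hspa1b had 47.4 CPM, Hspb1 124 CPM and Hspd1 795 CPM. Between these regions Hspa1b and Hspb1 were high where Hspd1 was low. The region led by Slc7a7 and Havcr1, the tubule injury marker Kim-1 (120 spots), had 61.9 CPM of Hspa1b and 125 CPM of Hspb1, both in the lower part of the section's range. The same region had 547 CPM of Hsp90aa1 and 1093 CPM of Hsp90ab1, the highest of the 13 PAN regions for each, and 720 CPM of Hspa8, above all cortical regions of that section.

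The region in which the distal tubule gene Calb1 was among the leading genes had more Hspa1b than any cortical region of its section that scored highest for proximal tubule genes. It had 106 CPM in the PAN section, 40.1 CPM in the PAN_LS-FMD section, 54.8 CPM in the healthy_LS-FMD section and 32.8 CPM in the healthy section. The cortical regions scoring highest for proximal tubule genes had 52.1 to 71.8 CPM in the PAN section, 14.9 to 19.9 CPM in the PAN_LS-FMD section, 12.2 to 12.3 CPM in the healthy_LS-FMD section and 8.16 to 10.8 CPM in the healthy section. The order of the sections for Hspa1b, PAN above the rest, was therefore found in both sets of regions. The Calb1 regions also scored high for principal and intercalated cell markers. Regions led by Slc12a3 and Gp2 without Calb1 had less Hspa1b than the Calb1 region of their section. They had 21.3 CPM in the PAN_LS-FMD section, 9.38 CPM in the healthy_LS-FMD section and 8.18 CPM in the healthy section, from 19, 7 and 10 UMIs. The PAN section had no such region. In the PAN_LS-FMD section the Calb1 region scored highest for red blood cell genes and had been placed with the blood-rich spots, so it does not enter the cortical values above.

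Across all 57 regions, Hspa1b and Hspb1 were the pair most alike, with a Pearson correlation of 0.87, and of 0.69 after each section was centred on its own mean. Hspd1 ran against Hspb1, at -0.81 across all regions and -0.83 after centring. Hsp90aa1 and Hsp90ab1 correlated at 0.83 across all regions but at 0.38 after centring, while Hspa8 correlated with them at 0.70 and 0.69 after centring. These values describe regions that share libraries and depth. Among 6787 genes with at least 2000 UMIs, the 5 most like Hspa1b were Col18a1, Coro1b, St5, Vasp and Lgals3 (0.90 to 0.92). The 5 most like Hspb1 were Lgals1, Csrp1, Arap1, Adamts10 and Prelp (0.93 to 0.94), and those most like Hspd1 were Aldh9a1, Map7, Cat, Mgam and Dhrs4 (0.90 to 0.92). These lists changed after each section was centred. For Hspa1b they were then St5, Rrad, Cdc42se1, Pmvk and S100a1 (0.80 to 0.83). For Hspb1 they were Ptrf, Lamb2, Flna, Ptp4a3 and Ehd4 (0.89 to 0.91), and for Hspd1 Dhrs4, Galnt11, Map7, Decr1 and Dhtkd1 (0.90 to 0.94).

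The wider chaperone lists had a median fold close to that of all genes in the PAN cortex. Of 78 listed genes beside the 8, 72 were measured there, 27 were called higher and 6 lower, beside 40.6% of all genes higher and 9.88% lower, and their median log2 fold was 0.44 against 0.45 over all genes. Of the HSP70 and HSP110 list 3 of 7 other genes were higher, with Hspa2 at 2.61-fold. Of the cytosolic HSP40 list 3 of 10 were higher, with Dnajb6 at 2.12-fold and Dnaja1 at 1.62-fold, and Cct4 at 1.59-fold was the only one of 8 subunits of the CCT folding ring. Of 17 co-chaperones 6 were higher, among them Cacybp (2.38-fold) and Bag2 (2.07-fold).

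Of 13 chaperones of the endoplasmic reticulum 10 were called higher in the PAN cortex, beside 40.6% of all genes, and none lower. Hspa5, the main HSP70 of that compartment, had 565 CPM in the PAN cortex, 395 CPM in the PAN_LS-FMD cortex, 298 CPM in the healthy_LS-FMD cortex and 211 CPM in the healthy cortex. In the PAN cortex it was 2.67 times the healthy level, and Sdf2l1, a partner of Hspa5, was 3.15 times. In the PAN_LS-FMD cortex against the healthy cortex 5 of these 13 were higher, beside 10.1% of all genes, with Hspa5 at 1.87-fold. The reticulum's HSP90, Hsp90b1, had 512 CPM in the PAN cortex and 243 CPM in the healthy cortex (2.10-fold), beside Trap1, the mitochondrial HSP90, with 75.7 CPM against 109 CPM (0.694-fold).

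Of 6 mitochondrial chaperones other than Hspd1 measured in the PAN cortex, none was called higher and 2 were called lower, beside 40.6% of all genes higher and 9.88% lower. Hspe1 and Hspa9, the mitochondrial HSP70, were listed but were not among the 6 measured. Grpel1, the nucleotide exchange factor of mitochondrial HSP70, had 181 CPM in the PAN cortex against 332 CPM in the healthy cortex (0.545-fold), and Clpx, the unfolding subunit of a matrix protease, had 80.2 CPM against 132 CPM (0.605-fold). In the PAN_LS-FMD cortex against the healthy cortex none of the 6 was called, beside 10.1% of all genes higher and 3.03% lower.

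Small heat shock proteins split. Beside Hspb1, 2 of 7 others were called higher and 4 lower in the PAN cortex, beside the same 40.6% and 9.88% of all genes. Cryab, a crystallin chaperone, had 150.5 CPM in the PAN cortex, 503 CPM in the PAN_LS-FMD cortex, 654 CPM in the healthy_LS-FMD cortex and 432 CPM in the healthy cortex. It was lowest in the section in which Hspb1 was highest, at 0.348 times the healthy level. Hspb6 and Hspb2 were lower as well (0.583 and 0.543-fold), while Hspb8, which works with Bag3 in autophagy, was higher (1.69-fold).

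Genes that act on the heat shock response or beside it also differed. Hsf1 had 39.7 CPM in the PAN cortex and 30.9 CPM in the PAN_LS-FMD cortex. It had 31.7 CPM in the healthy_LS-FMD cortex and 23.9 CPM in the healthy cortex. Of 4 heat shock factor genes measured, Hsf1 (1.67-fold) and Hsf2 (1.52-fold) were called higher in PAN against healthy, beside 40.6% of all genes. Both folds include the upward shift of all genes described above for this comparison. Neither gene was rescaled by median of ratios, so whether these calls hold without that shift is not known. Among 14 measured genes listed as Hsf1 targets other than the 8, 8 were higher in the PAN cortex and 1 was lower, beside 40.6% and 9.88% of all genes. In the PAN_LS-FMD cortex against the healthy cortex 5 of these 14 were higher, beside 10.1% of all genes, with Hspb8 at 2.09-fold and Chordc1, an HSP90 co-chaperone, at 1.91-fold.

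Immediate early genes, which cells switch on soon after a stimulus, were also counted. In the PAN cortex 7 of 8 were called higher than in the healthy cortex, beside 40.6% of all genes. In PAN_LS-FMD against PAN 6 of 8 were called lower, beside 27.3% of all genes, and in PAN_LS-FMD against healthy none of 7 was called. Egr1 had 78.4 CPM in the PAN cortex, 7.98 CPM in the PAN_LS-FMD cortex, 10.7 CPM in the healthy_LS-FMD cortex and 6.09 CPM in the healthy cortex. Such genes also respond to handling of the tissue, and the part of handling in these values was not tested. Of the osmolyte genes, 4 of 4 were higher in the PAN cortex, beside 40.6% of all genes, among them Nfat5, the regulator of the response to high salt, at 2.99-fold. Slc6a12, the betaine transporter of the medulla, had 193 CPM in the healthy_LS-FMD medulla and 8.86 CPM in the healthy medulla, where 34.7% of all genes were called higher. It led a region that scored highest for inner medulla markers, which only the healthy_LS-FMD section had. In the cortex of this pair Slc6a12 stood at 8.91-fold, Nfat5 at 1.87-fold and Akr1b1 at 0.785-fold. The part of the sampled tissue in these values, and any link to Hspa1b, was not tested.

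**Figure D5:**
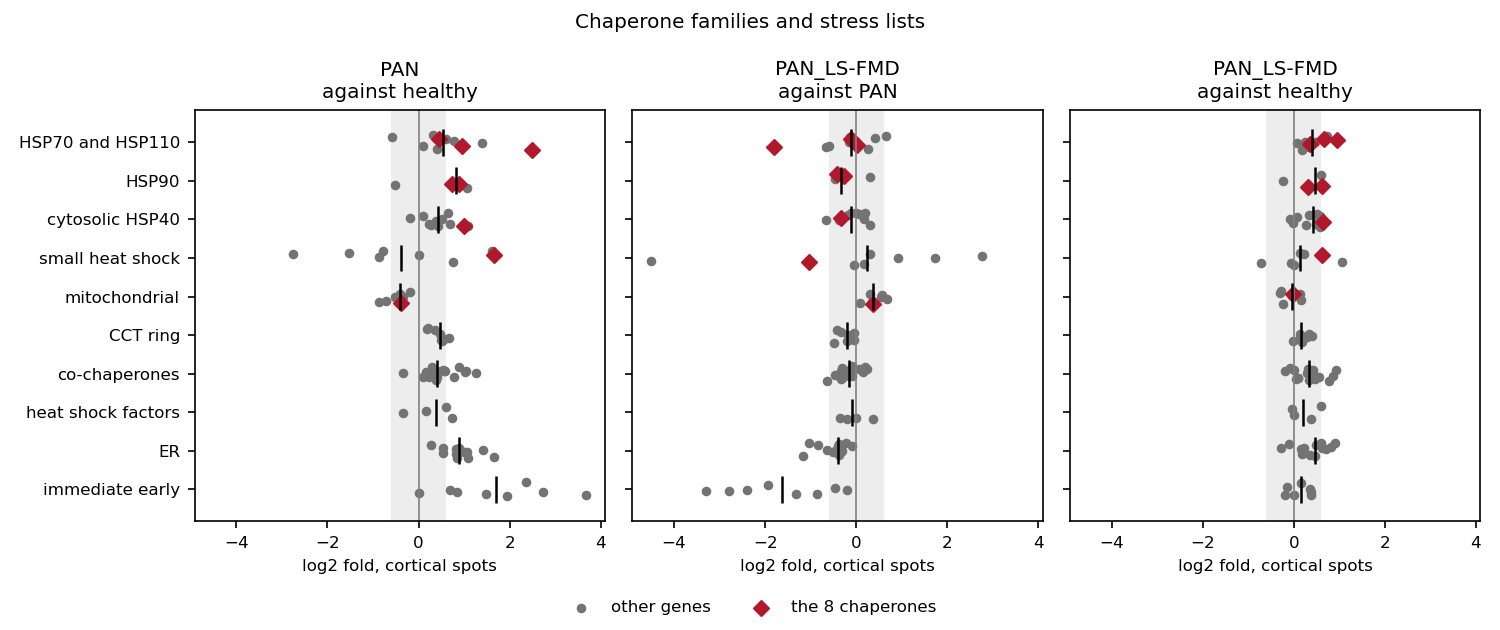
log2 fold in cortical spots of the genes of 10 lists in 3 comparisons of sections; grey points are other genes, red diamonds the 8 chaperones described here, black bars the median of a list with those included, and the grey band the range under 1.5-fold. For PAN against healthy the reticulum and immediate early lists lie right of 0 and most mitochondrial genes left of it.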

How the data were processed

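The deposited files hold counts, that is UMI counts per gene and spot, which the authors made with Space Ranger, version 1.2.1 for the PAN, PAN_LS-FMD and healthy_LS-FMD sections and version 2.0.1 for the healthy section, per the file headers. The 3 comparisons that use the healthy section carry that difference of version. The sources used here give neither genome build nor annotation. Multi-copy genes may be counted with uncertainty: RefSeq lists 33 pseudogenes of Hspa8, 23 of Hsp90ab1, 20 of Hspd1 and 16 of Hsp90aa1.

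Spots under 500 UMIs were left out (13 in all), and no doublet caller was run. Spot positions are shared by the slide layout, so 1650 to 2279 barcodes occur in both sections of a pair. Each section was clustered alone with scanpy 1.11.5 (10000 counts per spot, 2000 variable genes, 30 components, 15 neighbours, Leiden resolution 1), and a region took the zone of its highest centred mean of log2(CPM + 10) over marker genes. UMIs were summed over the spots of a zone. Folds of CPM have exact conditional 95% intervals of 2 Poisson counts (scipy 1.17.1), which cover counting error only. Genes with 20 UMIs over both sections were tested, and the code was tested on simulated data. The members, the 12 gene lists and the 15 marker lists were chosen with earlier results of these data known. All 8 members are named; of each list the genes with the highest and lowest folds at 50 UMIs or more (up to 4), and the 5 genes most like Hspa1b, Hspb1 and Hspd1 over regions. Hspe1 is named for its promoter, Hspe1 and Hspa9 are named as listed genes that were not measured, and regions are named by their leading genes. Alternatives covered zones, scaling, filters and the call.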

Additional observations from a re-analysis of the deposited data

Results flagged for a closer look

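On total UMIs, 3 chaperones were called in opposite directions between dieted and undieted sections in the injected and the uninjected pair. These calls are what singled them out. Others also ran in opposite directions over all spots, without a call in both pairs. Hspa8 stood at 1.31-fold in the injected pair and 0.720-fold in the uninjected pair, and Hspd1 at 1.38 and 0.962-fold. Hsph1 stood at 0.944 and 1.49-fold and Hsp90ab1 at 0.828 and 1.03-fold, in the same order. The share of all genes called in opposite directions is not given. The difference between the pairs was not tested, since each group had 1 section. The diets were not the same, with 6 cycles in the injected rats and 1 cycle with 72 h of refeeding in the uninjected ones. Over all spots, Hspa1b was 0.266 times as high in PAN_LS-FMD as in PAN, and 2.39 times as high in healthy_LS-FMD as in healthy. Of all genes, 35.5% were called lower in PAN_LS-FMD against PAN over all spots, and 27.1% higher in healthy_LS-FMD against healthy. In the medulla the Hspa1b folds were 0.207 for PAN_LS-FMD against PAN and 3.20 for healthy_LS-FMD against healthy. Over all spots, Hspb1 stood at 0.367-fold for PAN_LS-FMD against PAN and 1.63-fold for healthy_LS-FMD against healthy. The medullary Hspb1 folds were 0.339 for PAN_LS-FMD against PAN and 2.27 for healthy_LS-FMD against healthy. In the outer stripe, Dnajb1 stood at 0.629-fold for PAN_LS-FMD against PAN and 1.59-fold for healthy_LS-FMD against healthy. By median of ratios both Dnajb1 calls were lost (0.857 and 1.35-fold), as was the Hspb1 call over all spots in healthy_LS-FMD against healthy (1.28-fold), while both Hspa1b pairs and the medullary Hspb1 pair kept their calls. By that scaling Hspa8 was also called in opposite directions in the outer stripe and the medulla, and Hspd1 in the medulla. Both were higher in PAN_LS-FMD than in PAN and lower in healthy_LS-FMD than in healthy.

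The ratio of the injected fold to the uninjected fold was 0.111 for Hspa1b over all spots (counting interval 0.0979 to 0.126) and 0.226 for Hspb1. In the cortex the folds for healthy_LS-FMD against healthy were 1.41 for Hspa1b and 1.14 for Hspb1, neither of them called, and by median of ratios 1.17 and 0.942.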

How the results depend on the processing

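No paired analysis was possible because each group had 1 section, and for the same reason no replicate could be left out. Under all 16 settings Hspa1b was higher in PAN than in healthy, at 3.95 to 6.45-fold, as was Hspb1 at 2.30 to 4.53-fold, and Hspd1 was lower at 0.563 to 0.892-fold. Under all 15 settings of PAN_LS-FMD against PAN, Hspa1b ran at 0.180 to 0.409-fold and Hspb1 at 0.296 to 0.689-fold. The 2-fold threshold and the setting with no minimum of UMIs per gene alter calls only, so their folds equal the main ones. The settings of PAN against healthy include healthy_LS-FMD as the reference. Counts of the 8 genes called were less stable, and the cause was not tested unless the setting itself gives it. The share of all genes called is not given for changed clustering, reduced totals, mean CPM per spot or the 2-fold threshold. Counts under these settings therefore cannot be set against it. Calls by mean CPM per spot used the fold alone, without the interval or the minimum of UMIs. For PAN against healthy the 6 higher calls became 2 with median of ratios and 2 at a 2-fold threshold, and the 0 lower calls became 1 in the medulla and 1 with median of ratios (Hspd1). For PAN_LS-FMD against PAN, 1 was higher in the medulla and 1 with median of ratios (Hspd1), and 1 in place of 2 was lower at Leiden resolution 0.5 (Hspa1b). For PAN_LS-FMD against healthy the 5 higher calls became 2 in the medulla, 1 with median of ratios, 3 with totals free of mitochondrial, haemoglobin and ribosomal protein genes, 0 at 2-fold and 3 in glomerular spots, a setting chosen after seeing the data. For healthy_LS-FMD against healthy the 1 higher call became 3 over all spots, 4 in the medulla, 2 at Leiden resolution 2, 2 with the sections clustered together, 0 with median of ratios, 0 with the reduced totals, 2 by mean CPM per spot and 0 at 2-fold. In that comparison 1 gene, Hspa8, was called lower at resolution 2, with joint clustering, with median of ratios, by mean CPM per spot and in glomerular spots, that is 1 in each. Counts that stayed within 1.5 times the cortical ones were 5 higher in glomerular spots for PAN against healthy, 3 lower in the outer stripe for PAN_LS-FMD against PAN, and 4 higher over all spots and 4 in the outer stripe for PAN_LS-FMD against healthy. The ratio of outer stripe to cortex for Hspa1b in the healthy_LS-FMD section reversed at resolution 0.5, to 1.02. With healthy_LS-FMD in place of healthy, 5 of the 8 were higher in PAN, among them Hspa8 and without Dnajb1 (1.31-fold) and Hsp90ab1 (1.48-fold). The share of all genes called was not computed for that pair of sections, so this count cannot be set against it. Zone marker lists from elsewhere were not run, and joint clustering gave no outer stripe for PAN. Low counts limit glomerular Hspa1b most, with 10 UMIs in the healthy_LS-FMD section.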

Other observations

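The steroid-responsive co-chaperone Fkbp5, an HSP90 partner that restrains the glucocorticoid receptor, was highest in the healthy_LS-FMD section. It had 47.3 CPM in the PAN cortex, 49.8 CPM in the PAN_LS-FMD cortex, 77.3 CPM in the healthy_LS-FMD cortex and 27.4 CPM in the healthy cortex. The healthy_LS-FMD cortex stood at 2.82 times the healthy level, and the PAN_LS-FMD cortex at 1.82 times. Hspa2, an HSP70 best known from sperm development in the mouse, had 36.3 CPM in the PAN cortex, 23.0 CPM in the PAN_LS-FMD cortex, 31.8 CPM in the healthy_LS-FMD cortex and 13.9 CPM in the healthy cortex. On total UMIs in the cortex it was called higher than in healthy in all 3 of the other sections, at 2.61-fold in PAN, 1.66-fold in PAN_LS-FMD and 2.29-fold in healthy_LS-FMD. Of all genes, 40.6%, 10.1% and 19.4% were called higher in these comparisons, in the same order. Neither Fkbp5 nor Hspa2 was rescaled by median of ratios, so whether these differences hold under that scaling is not known. In the medulla Hspa2 reached 89.8 CPM in the healthy_LS-FMD section, against 29.7 CPM in the healthy section, where 34.7% of all genes were called higher. Only the healthy_LS-FMD medulla held regions that scored highest for inner medulla markers (530 spots). Their part in the Hspa2 value was not tested.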
